A study of Mus musculus with 4 samples.

Results

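The cholesterol sensing and efflux genes Abca1, Abcg1, Nr1h2, Nr1h3, Srebf1, Srebf2, Npc1 and Npc2 were followed through single-cell RNA sequencing data from mouse brain myeloid cells. They were taken by gene symbol, and all 8 were found, each once, among the 28692 genes of the deposited gene table. The cells came from the cortex and hippocampus of 4 male C57BL/6J mice aged 90 days, with 1 library per mouse. Every mouse had been given PBS by tail vein injection. The labels put this 24 hours before the animals were killed and the study's methods give another interval, so the time is uncertain. Tissue was dissociated by cold Dounce homogenization, a mechanical method on ice without enzymes. Live CD45+ and CD11b+ cells were sorted, a gate that takes microglia together with other myeloid cells, and whether CX3CR1 was also used is given differently in the study's methods and in its sample information. All libraries belonged to 1 group, called here cold Dounce, PBS (n = 4), so no comparison between treatments was possible. The comparisons that remained were between libraries, between the members and between cell states within each library.

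Cells keep free cholesterol within a narrow range. Cholesterol released in the lysosome is handed from the soluble protein Npc2 to the membrane protein Npc1, which passes it on to other membranes. Oxysterols, oxidized forms of cholesterol, bind the liver X receptors LXRα (Nr1h3) and LXRβ (Nr1h2), nuclear receptors that pair with retinoid X receptors and raise transcription of the exporters Abca1 and Abcg1, of Apoe and of Srebf1. When cholesterol is scarce, the factor encoded by Srebf2 is cut free from its membrane anchor and raises cholesterol synthesis and uptake genes, while Srebf1 mainly serves fatty acid synthesis. In the brain, microglia take up lipid from myelin and dying cells and pass cholesterol to apolipoprotein E particles through these exporters.

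The matrices held 2619 to 3703 barcodes and 5867333 to 11275195 unique molecular identifiers (UMIs, each counted as 1 RNA molecule) per library. After removal of cells with fewer than 400 genes or more than 10% mitochondrial UMIs, 2576 to 3692 cells per library remained, with a median of 1905 to 2936 UMIs per cell. The libraries shared 81 barcodes, 6 to 21 in each pair. Microglial marker genes, all 10 of which were detected, summed to 42013 to 43355 CPM (counts per 1000000 UMIs) in the 4 libraries. Markers of border macrophages summed to 14.3 to 85.1 CPM and those of monocytes to 11.9 to 55.0 CPM, while neuronal markers reached at most 2.27 CPM. Astrocyte markers summed to 220 to 280 CPM, of which Slc1a3 made up 98.9%. Those of oligodendrocytes summed to 108 to 131 CPM, of which Cnp made up 53.5%. Endothelial markers summed to 21.4 to 28.4 CPM, of which Pecam1 made up 98.5%. The endothelial markers Cldn5, Ly6c1 and Slco1a4 and the neuronal marker Syt1 had 0 UMIs. Replicate 4 stood apart: 10 immediate early genes, which cells switch on within minutes of a stimulus, summed to 1070 CPM, 1187 CPM, 1025 CPM and 2665 CPM in replicates 1 to 4, and all 10 were highest in replicate 4. The study states that the sort of its last animal was interrupted, so that these cells spent time at room temperature. The study names that animal Sample 4. Cells with its activation signature, which includes immediate early genes, came almost only from that sample, the study reports. The labels do not mark that animal, and replicate 4 has the last number among the titles. The part of the interrupted sort in the values of this library was not tested. For some results that rest on this library, but not for all, a value without it is also given.

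Npc2 was by far the highest of the 8 genes. Npc2 (ENSMUSG00000021242, chromosome 12, 84754562 to 84773152 on GRCm38, minus strand) was at 900 CPM, 932 CPM, 863 CPM and 911 CPM in replicates 1 to 4, or 901 ± 28.9 CPM (SD, n = 4), and 136 genes of the genome lay above it. Its membrane partner Npc1 (ENSMUSG00000024413, chromosome 18, 12189692 to 12236400, minus strand) was at 76.2 CPM, 63.5 CPM, 73.3 CPM and 66.3 CPM, or 69.8 ± 5.91 CPM (SD, n = 4). Npc2 UMIs thus outnumbered Npc1 UMIs in every library, by 12.99 ± 1.44 to 1 (SD, n = 4). Differences in capture between genes were not tested. A level in CPM is a gene's share of all UMIs summed over the cells of a library. Because the chemistry counts 3′ ends, it was not divided by gene length.

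Of the liver X receptors, Nr1h2 made up nearly all of the UMIs. Nr1h2 (ENSMUSG00000060601, chromosome 7, 44549616 to 44553951, minus strand) was at 54.0 CPM, 58.4 CPM, 50.2 CPM and 51.4 CPM, or 53.5 ± 3.64 CPM (SD, n = 4). Nr1h3 (ENSMUSG00000002108, chromosome 2, 91184061 to 91202834, minus strand) was counted only 7, 13, 4 and 7 times in replicates 1 to 4, which is 0.992 CPM, 1.15 CPM, 0.685 CPM and 0.778 CPM. The exact Poisson 95% intervals of these Nr1h3 levels ran from 0.187 CPM at the lowest to 2.04 CPM at the highest, and all 4 overlapped. The ratio of Nr1h2 to Nr1h3 UMIs was 61.1 ± 10.4 (SD, n = 4), and its precision is limited by the few Nr1h3 counts.

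The exporter Abca1, which loads cholesterol onto lipid-poor apolipoproteins, was the only member with a library apart. Abca1 (ENSMUSG00000015243, chromosome 4, 53030787 to 53159895, minus strand) was at 105 CPM, 107 CPM, 107 CPM and 87.8 CPM in replicates 1 to 4. Replicates 1 to 3 lay within 3 CPM of each other, and replicate 4 lay below them, with an exact Poisson interval of 81.8 to 94.1 CPM that did not reach the lowest bound of the others, 97.5 CPM. By Dixon's range test (two-sided), which divides the gap between the outermost value and its neighbour by the range on the log2(CPM + 1) scale, the ratio was 0.901, above the 95% critical value for 4 libraries. Of the 7656 genes at a mean of 10 CPM or more, 354 (4.62%) had a library apart by the same test, and 1 of the 6 members at that level did, a share that rests on a single gene. Without replicate 4 the mean of Abca1 was 106 CPM instead of 102 CPM. With TMM scaling factors in place of library totals the ratio fell to 0.817, and Abca1 no longer passed. Abcg1 (ENSMUSG00000024030, chromosome 17, 31057675 to 31117988, plus strand), which moves cholesterol to larger lipoprotein particles, was at 42.5 CPM, 39.6 CPM, 49.99 CPM and 52.2 CPM, or 46.1 ± 5.99 CPM (SD, n = 4). Replicate 4 was thus the lowest library for Abca1 and the highest for Abcg1, and the ratio of Abca1 to Abcg1 was 2.47, 2.70, 2.13 and 1.68, with no library apart (Dixon ratio 0.502).

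Both SREBP genes were low. Srebf1 (ENSMUSG00000020538, chromosome 11, 60199089 to 60222581, minus strand) was at 9.35 CPM, 10.3 CPM, 12.2 CPM and 13.4 CPM, or 11.3 ± 1.84 CPM (SD, n = 4). Srebf2 (ENSMUSG00000022463, chromosome 15, 82147181 to 82205379, plus strand) was at 6.52 CPM, 5.86 CPM, 5.31 CPM and 6.67 CPM, or 6.09 ± 0.628 CPM (SD, n = 4), from 31 to 66 UMIs per library. Srebf2 was below Srebf1 in 4 of 4 libraries, at a ratio of 0.550 ± 0.112 (SD, n = 4). Apart from Abca1, no member had a library apart, and their Dixon ratios ran from 0.235 for Npc1 to 0.543 for Npc2.

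**Figure D1:**
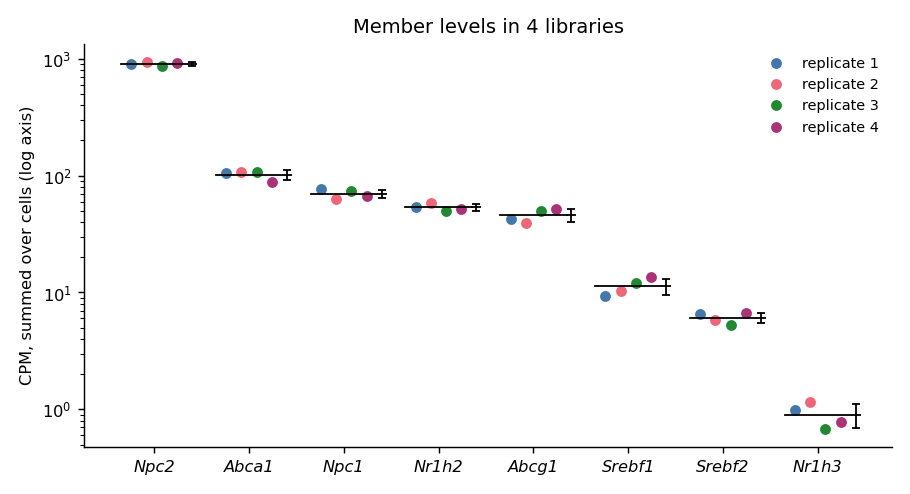
Level of each of the 8 members in CPM (log axis) in replicates 1 to 4 (coloured points), with the mean (horizontal line) and SD (error bar, n = 4). Npc2 stands at about 900 CPM and Nr1h3 at about 1 CPM, and the low point of Abca1 is replicate 4 at 87.8 CPM.

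In order of level the members were Npc2, Abca1, Npc1, Nr1h2, Abcg1, Srebf1, Srebf2 and Nr1h3. The steps between neighbours were 8.90-fold, 1.45-fold, 1.30-fold, 1.17-fold, 4.09-fold, 1.85-fold and 6.86-fold. For 6 of the 7 steps the ranges of the libraries did not overlap and the upper gene was higher in 4 of 4 libraries (exact sign-flip permutation test within libraries, two-sided, p = 0.13, the smallest that 4 libraries allow). Nr1h2 and Abcg1 did not differ beyond their spread: Nr1h2 was the higher in 3 of 4 libraries, with overlapping ranges (exact permutation p = 0.375). The order of the mean levels was the same in cells with at least 1000 genes and in microglia-like clusters alone.

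How often the members were seen in a cell was compared after thinning every cell to 1000 UMIs. Cells with fewer UMIs were left out, so that 2491 to 3669 cells per library remained. Npc2 was seen in 57.7%, 60.5%, 57.0% and 57.5% of cells in replicates 1 to 4. Abca1 was seen in 9.49% ± 0.769, Npc1 in 6.77% ± 0.771, Nr1h2 in 5.25% ± 0.552 and Abcg1 in 4.40% ± 0.815 of cells (SD, n = 4). These shares are set largely by depth: without thinning Abca1 was seen in 22.0% of cells and Npc2 in 85.1%.

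Droplets also catch free RNA, so the shares were set beside genes that other brain cells make. The oligodendrocyte gene Mbp was seen in 0.938% ± 0.212 of cells, the astrocyte gene Aldoc in 0.169% ± 0.135 and the neuronal gene Snap25 in 0.0389% ± 0.0114 (SD, n = 4), all at the same 1000 UMIs. Cldn5, an endothelial gene, was seen in 0 cells. Npc2, Abca1, Npc1, Nr1h2 and Abcg1 were above all of these in every library, whereas Srebf1 (1.11% ± 0.149) was near Mbp, Srebf2 (0.604% ± 0.118) lay between Mbp and Aldoc, and Nr1h3 (0.0856% ± 0.0447) lay at the level of Aldoc and Snap25. The comparison holds only for the genes chosen. Slc1a3 and Cnp, which made up 98.9% of the astrocyte and 53.5% of the oligodendrocyte marker sum, were not among them. Nr1h3 was seen in 1, 5, 2 and 3 cells of the 4 libraries. Its share cannot be told apart from those of Aldoc and Snap25 by this measure, nor that of Srebf1 from that of Mbp. Srebf2 was below Mbp and above Aldoc in every library. Whether the UMIs of Nr1h3, Srebf1 and Srebf2 came from free RNA was not tested. The microglial gene Tmem119 was seen in 93.2% ± 0.595 of cells (SD, n = 4).

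**Figure D2:**
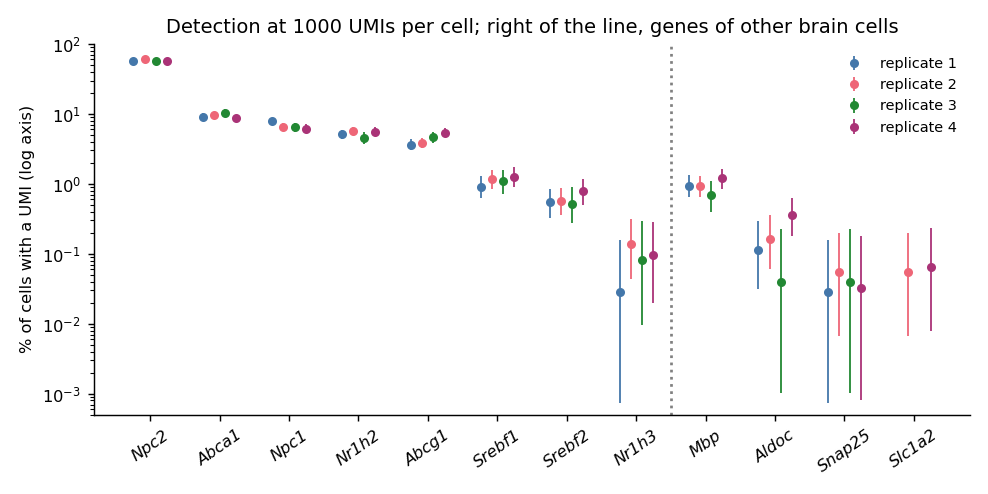
Share of cells with at least 1 UMI of each gene (%, log axis) at 1000 UMIs per cell in replicates 1 to 4 (coloured points), with exact Clopper-Pearson 95% intervals that cover counting error only; values of 0 cannot be drawn on this axis, which leaves out Slc1a2 in 2 libraries. The members fall from 58.2% for Npc2 to 0.0856% for Nr1h3, which lies among the genes of other brain cells right of the dotted line.

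The members were spread over cells about as evenly as random counting of a constant level would give. The ratio of variance to mean over cells, which is 1 under such counting, was taken at 1000 UMIs per cell. It was 1.05 ± 0.0335 for Npc2, 1.01 ± 0.0138 for Abca1, 1.01 ± 0.0138 for Npc1, 0.987 ± 0.00582 for Nr1h2 and 1.02 ± 0.0328 for Abcg1 (SD, n = 4). Over all 8 members and 4 libraries it lay between 0.978 and 1.09. In the same cells it was 22.4 ± 9.34 for Apoe, which encodes the apolipoprotein that receives exported cholesterol, 7.37 ± 3.24 for the lysozyme gene Lyz2 and 1.22 ± 0.0542 for Tmem119 (SD, n = 4). For genes with few counts the ratio is bound to lie near 1, so of the members it is informative mainly for Npc2.

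**Figure D3:**
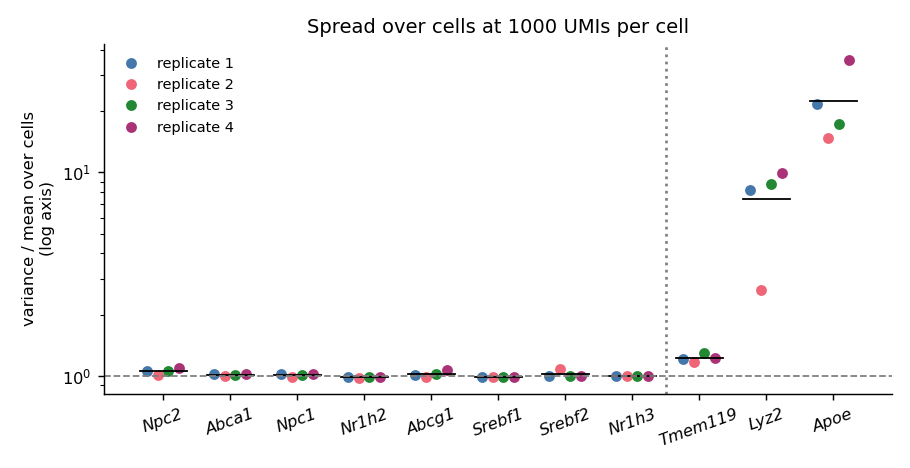
Variance divided by mean of UMI counts over cells thinned to 1000 UMIs (log axis) in replicates 1 to 4 (coloured points), with the mean as a horizontal line and random counting as a dashed line at 1. The 8 members lie between 0.978 and 1.09, and Apoe lies between 14.8 and 35.7.

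The members were also found together about as often as their separate shares predict. A cell of 1000 UMIs held a median of 1 of the 8 members, and 29.9% to 31.9% of cells held none. Npc2 and Npc1 were seen together in 511 cells, which was 1.01 ± 0.0455 times the number expected from their shares, and Npc2 and Abca1 in 674 cells, 0.953 ± 0.0635 times (SD, n = 4). For the exporters Abca1 and Abcg1 the number was 49 cells and the ratio 0.932 ± 0.180. Npc1 and Nr1h2 were together in 39 cells, 0.835 ± 0.120 times the expected number and below it in 4 of 4 libraries. Over the 28 pairs the median ratio was 0.924 at 1000 UMIs, 1.01 at 2000 UMIs and 1.04 without thinning, so the side of 1 on which it fell followed the depth. These ratios rest on few cells and are given as a description.

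Levels were next described over clusters of cells, made without the members or the pathway genes among the variable genes. Of 7 clusters, 5 were microglia-like with all 10 microglial markers detected, 1 was interferon-responsive (155 cells, led by Ifit3 and Isg15) and 1 stayed unnamed (108 cells, led by the antigen presentation genes Cd74 and H2-Aa together with Pf4 and Plac8). The microglia-like cluster 6 (68 cells) was led by the chemokine genes Ccl4 and Ccl3 and the lipoprotein lipase gene Lpl. Since clusters come from the same cells, these values carry no test. In the largest clusters, Npc2 was at 945 CPM, 958 CPM, 971 CPM and 1027 CPM in cluster 0 (5528 cells, led by mitochondrial genes) and at 820 CPM, 861 CPM, 805 CPM and 853 CPM in cluster 1 (5343 cells, led by Lrrc8a and Slc39a1), without overlap. Abcg1 lay the other way, at 35.8 to 44.8 CPM in cluster 0 and 46.0 to 57.8 CPM in cluster 1. Abca1 did not separate these clusters, at 101 ± 10.9 CPM and 104 ± 10.6 CPM (SD, n = 4), and replicate 4 was its lowest library in each. In the small clusters, Npc2 was at 1277 ± 121 CPM and Abca1 at 152 ± 39.6 CPM in cluster 6 (SD, n = 4), the latter from 38 UMIs. Cluster 3 (184 cells, led by Pros1 and Erlec1) was nearly as high, with Npc2 at 1233 ± 148 CPM and Abca1 at 147 ± 58.4 CPM (SD, n = 4). In the unnamed cluster Srebf2 was at 23.0 ± 14.6 CPM (SD, n = 4) from 10 UMIs in all, against 4.81 to 8.90 CPM in the other clusters. At this depth a difference of that size in 10 UMIs is not firm.

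Cell states were then compared within each library. A state was defined by a list of genes that holds no member and no pathway gene. Cells thinned to 1000 UMIs were placed in it when their summed UMIs of the list reached a minimum set per library, which at most a fixed share of its cells could reach. Counts of these cells and of all other cells were summed per library, and the 4 pairs of sums were tested with edgeR's quasi-likelihood test with the library as a block and Benjamini-Hochberg adjustment over all genes tested. A state is a range of a score and not a cell type, and many cells lay near its limit. Nr1h3 was too low to be tested in any state, so that 7 of the 8 members were tested in each.

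No member was called in any of the 5 states at an adjusted p below 0.05. The lowest adjusted p of a member was 0.422, for Npc1 in border myeloid cells. DESeq2 called 0 members too, but it gave no adjusted p for 2 of the 7 members in interferon cells, 5 in Cst7 and Spp1 cells and 2 in chemokine cells. At an unadjusted p below 0.05 edgeR had 1 member, Abca1 in immediate early cells, and DESeq2 had this and Npc2 in interferon cells. Since at most 8.6% of all genes were called in any state, 0 of 7 is near the background and no result about these genes as a group. A missed threshold does not show that levels are equal, so the intervals are given with each state.

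**Figure D4:**
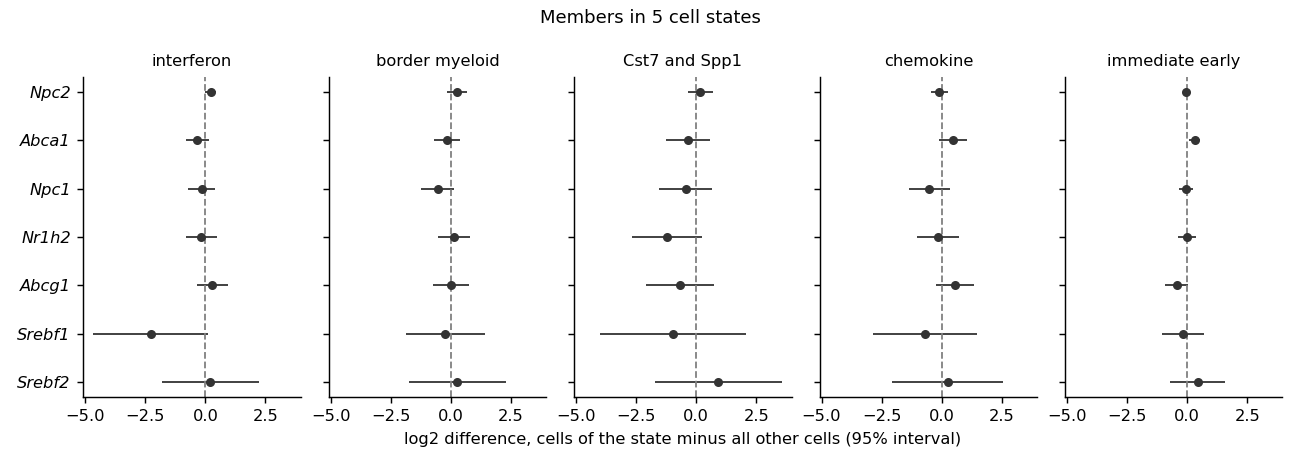
Log2 difference of each tested member between the cells of a state and all other cells (points) with approximate 95% intervals (lines) from edgeR's quasi-likelihood fit, 4 libraries as blocks. The intervals are narrowest for Npc2 and for immediate early cells and widest for Srebf1 and Srebf2, and only that of Abca1 in immediate early cells excludes 0 before adjustment.

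Interferon cells were 158 of 12737, chosen by 12 interferon-induced genes such as Ifit3 and Isg15, of which 73 lay at the minimum and 302 more lay 1 UMI below it. Of 9629 genes tested, 2.61% were called, 1.94% higher and 0.665% lower, against 0 of 7 members. Npc2 was at 1028 CPM, 1152 CPM, 949 CPM and 1155 CPM in these cells and at 895 CPM, 930 CPM, 863 CPM and 907 CPM in the rest, higher in 4 of 4 libraries and without overlap. Its log2 difference was 0.22 (95% interval -0.01 to 0.45, edgeR adjusted p = 0.512), so that a rise of more than 1.37-fold lies outside the interval. With thinned counts it was 0.03, and within microglia-like and interferon-responsive clusters, which leave out 19 of the 158 cells, 0.08. Abca1 was at 104 CPM, 84.7 CPM, 63.3 CPM and 68.5 CPM in interferon cells and 88.3 to 107 CPM in the rest, with overlapping ranges. Its log2 difference was -0.34 (95% interval -0.82 to 0.15). Srebf1 had 1 UMI in all interferon cells. Nr1h2, Npc1, Abcg1 and Srebf2 had log2 differences between -0.16 and 0.29, each with an interval that held 0.

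Border myeloid cells were 106 of 12737, chosen by 13 genes of brain border macrophages, monocytes and antigen presentation, with 77 in the unnamed cluster. The minimum was 18 UMIs in replicate 4 and 2 or 3 UMIs in the other libraries, so the strictness differed between libraries. Of 9649 genes 8.6% were called, 4.73% higher and 3.88% lower, the most of any state, and again 0 of 7 members. Npc2 was at 1056 CPM, 1017 CPM, 802 CPM and 1341 CPM in these cells and 865 to 931 CPM in the rest, with overlap and a log2 difference of 0.25 (95% interval -0.17 to 0.67). Npc1 was at 14.9 CPM, 69.5 CPM, 57.3 CPM and 26.8 CPM against 63.4 to 77.0 CPM, lower in 3 of 4 libraries (log2 difference -0.54, 95% interval -1.22 to 0.14, edgeR adjusted p = 0.422). Abca1 and Abcg1 differed by -0.16 and 0.01 on the log2 scale, with intervals of -0.71 to 0.39 and -0.72 to 0.75.

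Cst7 and Spp1 cells were 40 of 12737, chosen by 8 measured genes of lipid-laden, damage-associated microglia such as Cst7, Spp1 and Lgals3. Clec7a, also on that list, was not analysed here. Of these 40 cells, 15 lay in the unnamed cluster, 11 in cluster 6 and 23 at the minimum of 2 UMIs. Of 9461 genes 4.49% were called, 1.53% higher and 2.96% lower, and 0 of 7 members. Npc2 was at 1438 CPM, 1320 CPM, 736 CPM and 1575 CPM against 865 to 931 CPM in the rest, above it in 3 of 4 libraries (log2 difference 0.17, 95% interval -0.34 to 0.68). With library totals in place of TMM, log2 differences here were higher by about 0.30, the median over all genes was -0.25 instead of -0.56, and Npc2 came to 0.52 (edgeR adjusted p = 0.218). Without replicate 4 its log2 difference was -0.04. Nr1h2 had 4 UMIs in these cells and Abca1 14, so that their intervals were wide, from -2.69 to 0.23 and from -1.25 to 0.58.

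Chemokine cells were 81 of 12737, chosen by Ccl3, Ccl4, Ccl2, Tnf and Il1b, of which 49 lay at the minimum of 2 UMIs and 41 came from replicate 4. Of 9506 genes 0.936% were called, 0.579% higher and 0.358% lower, and 0 of 7 members. Abca1 was at 136 CPM, 58.0 CPM, 222 CPM and 192 CPM in these cells and at 104 CPM, 107 CPM, 105 CPM and 86.6 CPM in the rest, higher in 3 of 4 libraries with replicate 2 the other way. Its log2 difference was 0.47 (95% interval -0.12 to 1.05, edgeR adjusted p = 0.642), 0.80 without replicate 2 (adjusted p = 0.702) and -0.04 without replicate 4 (adjusted p = 0.994). After TMM its size and direction thus depended on replicate 4, which gave 23 of the 38 UMIs. By totals, replicates 1 and 3 were higher as well. In this state log2 differences of the members were higher by about 0.22 (median) with library totals than with TMM. For Npc2 the direction depended on the scaling: it was 967 to 1131 CPM against 863 to 932 CPM, higher in 4 of 4 libraries by totals, and -0.10 on the log2 scale after TMM against 0.18 by totals. The median over all genes was -0.28 after TMM and -0.06 by totals.

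Immediate early cells were 534 of 12737, chosen by 10 genes such as Fos, Egr1 and Jun at a minimum of 4 UMIs in replicates 1 to 3 and 8 UMIs in replicate 4. Of 9759 genes 0.205% were called, 0.174% higher and 0.0307% lower, and 0 of 7 members. Abca1 was at 126 CPM, 128 CPM, 157 CPM and 105 CPM in these cells and at 103 CPM, 106 CPM, 104 CPM and 87.2 CPM in the rest, higher in 4 of 4 libraries, from 168 UMIs. Its log2 difference was 0.31 (95% interval 0.08 to 0.54), which is 1.24-fold, with an unadjusted p of 0.0102 and an edgeR adjusted p of 0.678. Thus Abca1 was higher in immediate early cells within each library, while replicate 4, the library with the highest immediate early sum, had the lowest Abca1 in these cells and in the rest. Among the rest alone, replicate 4 was again apart (Dixon ratio 0.883). With its minimum of 8 UMIs, the rest of replicate 4 kept cells that the minimum of 4 UMIs placed in the state elsewhere. The rest is therefore not alike over libraries. Abcg1 was at 20.3 CPM, 14.6 CPM, 39.1 CPM and 64.2 CPM in immediate early cells and 40.8 to 51.3 CPM in the rest, lower in 3 of 4 libraries with replicate 4 the other way. Its log2 difference was -0.43 (95% interval -0.92 to 0.05, edgeR adjusted p = 0.887), and -1.03 without replicate 4 (adjusted p = 0.213). Npc2 had the tightest interval of all, -0.13 to 0.07 around a log2 difference of -0.03.

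**Figure D5:**
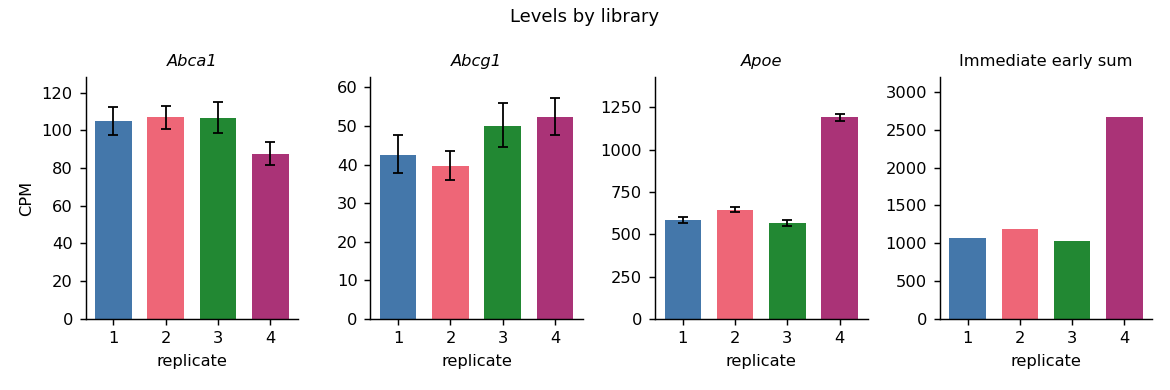
Level in CPM by replicate of the exporters Abca1 and Abcg1, of Apoe and of the sum of 10 immediate early genes, as bars from 0, with exact Poisson 95% intervals for the single genes. Replicate 4 is lowest for Abca1 (87.8 CPM), and highest for Abcg1 (52.2 CPM), Apoe (1191 CPM) and the immediate early sum (2665 CPM).

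The genes around the members were described by 8 lists holding 78 genes. Among LXR partners and cofactors, Ncor1, a corepressor, was highest at 170 ± 17.1 CPM, followed by the coactivator Ncoa3 at 52.4 ± 11.2 CPM and the LXR partner Rxrb at 45.7 ± 1.46 CPM (SD, n = 4). Among LXR target genes Apoe was at 582 CPM, 645 CPM, 566 CPM and 1191 CPM, high in replicate 4 with a Dixon ratio of 0.825, just under the critical value. The efferocytosis receptor Mertk followed at 298 ± 37.9 CPM and Arl4c at 218 ± 7.93 CPM. The summed LXR target list was 1557 CPM, 1564 CPM, 1588 CPM and 2215 CPM, so replicate 4 was apart (Dixon ratio 0.952), and Apoe made up most of the gap. In the same library the border macrophage sum was highest, at 85.1 CPM, and its part in the Apoe level was not tested.

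The SREBP processing list summed to 177 CPM in the mean over libraries and the list of cholesterol synthesis genes and other SREBP2 targets to 348 CPM, of which Ebp made up the largest share. Of the SREBP processing genes, Insig2, which retains SREBP in the endoplasmic reticulum, was at 82.4 ± 2.42 CPM, and the proteases Mbtps1 and Mbtps2 were at 33.2 ± 2.41 CPM and 31.5 ± 3.05 CPM (SD, n = 4). Of 22 cholesterol synthesis genes and other SREBP2 targets, 8 reached a mean of 10 CPM, led by Ebp at 143 ± 11.3 CPM, Msmo1 at 45.0 ± 3.34 CPM and Fdps at 24.8 ± 1.38 CPM. The lysosomal list was the highest, with Lamp1 at 1289 ± 62.6 CPM, Laptm4a at 771 ± 26.5 CPM and Lamp2 at 489 ± 14.7 CPM. For storage, the esterifying enzyme Soat1 was at 63.0 ± 5.65 CPM, the lipase Lipe at 36.2 ± 3.43 CPM and the lipid droplet protein Plin2 at 35.5 ± 7.13 CPM. Of the uptake receptors Lrp1 was at 175 ± 24.2 CPM, Scarb1 at 23.1 ± 2.44 CPM and Msr1 at 2.25 ± 0.633 CPM, and Vldlr had 0 UMIs. The limit of 3 UMIs that a count of 0 allows is 0.514 CPM in the shallowest library. Of the oxysterol enzymes Cyp27a1 was at 34.5 ± 2.65 CPM, and Cyp46a1 and Ch25h were at 1.09 ± 0.277 CPM and 0.298 ± 0.285 CPM. Among the genes of these lists at 10 CPM or more, 0 had a library apart by Dixon's test.

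Some genes of these lists were called in the states, namely LXR targets and the storage gene Plin2 and, in border myeloid cells, lysosomal genes, besides uptake genes that passed the filter on low counts only through the state. LXR partners and cofactors (7 tested), SREBP processing (5), cholesterol synthesis and SREBP2 targets (15) and oxysterol metabolism (1) had 0 calls in all 5 states, which for lists of this size is near the shares of all genes called (2.61%, 8.6%, 4.49%, 0.936% and 0.205% in the order above). LXR target genes had 2 higher and 1 lower of 9 in interferon cells, 3 and 3 of 10 in border myeloid cells (2 and 3 of 9 without Pltp), 3 and 1 of 9 in Cst7 and Spp1 cells, 1 and 0 of 9 in chemokine cells and 1 and 1 of 9 in immediate early cells. In border myeloid cells the median log2 difference was 0.15 for the LXR targets tested and -0.23 for all genes, since targets moved both ways. A difference between the members and these lists was not tested. The states shared cells, so calls of a gene in several states are not separate findings. Border myeloid cells included 12 of the Cst7 and Spp1 cells (30%) and 16 of the interferon cells (10.1%). Immediate early cells included 14 of the chemokine cells (17.3%).

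In border myeloid cells Apoe was at 13618 CPM, 13238 CPM, 14294 CPM and 30066 CPM and in the rest at 360 to 821 CPM, a log2 difference of 5.09 ± 0.308 (SE, edgeR adjusted p = 1.36e-58). Smpdl3a, a phosphodiesterase, rose by 2.30 ± 0.253 on the log2 scale (adjusted p = 1.28e-17) and Plin2, of 5 storage genes tested, by 1.61 ± 0.303 (adjusted p = 4.57e-06). The phospholipid transfer protein gene Pltp and the scavenger receptor genes Cd36 and Msr1 passed the filter on low counts only through the cells where they were high, so their calls are no support and their levels are given as a description. Pltp was at 59.5 CPM, 37.9 CPM, 68.7 CPM and 8.94 CPM in these cells against 0.704 to 2.04 CPM in the rest. Cd36 was at 37.9 to 107 CPM against 0.271 to 1.13 CPM and Msr1 at 6.32 to 71.5 CPM against 1.30 to 1.94 CPM. Mylip, which marks the LDL receptor for degradation, fell by 1.35 ± 0.287 on the log2 scale (adjusted p = 8.25e-05), Mertk fell by 1.12 ± 0.246 (adjusted p = 0.000174) and Lpcat3, a phospholipid remodelling enzyme, fell by 1.12 ± 0.263 (adjusted p = 0.000535). Of 10 lysosomal and transfer genes, Stard3 and Gramd1a were lower, with edgeR adjusted p = 0.00909 and 0.0232. The call of Stard3 was lost without replicate 3 (adjusted p = 0.179) or 4 (0.0642), and that of Gramd1a without replicate 1 (0.239), 3 (0.306) or 4 (0.139). With DESeq2 Stard3 (adjusted p = 0.138) and Gramd1a (0.196) were lost as well. With counts thinned to 1000 UMIs per cell, Mylip (edgeR adjusted p = 0.137), Lpcat3 (0.209), Gramd1a (0.306) and Plin2 (0.139) did not pass.

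In Cst7 and Spp1 cells Apoe was at 5726 CPM, 18454 CPM, 1892 CPM and 16286 CPM against 555 to 1102 CPM in the rest. Its log2 difference was 3.26 ± 0.280 (SE, edgeR adjusted p = 2.06e-28), an SE that does not measure this spread between libraries. Lpl, lipoprotein lipase, was at 24.8 CPM, 1037 CPM, 0 CPM and 179 CPM against 6.33 to 13.4 CPM, higher in 3 of 4 libraries and by far the most in replicate 2 (log2 difference 4.85 ± 0.455, edgeR adjusted p = 6.35e-24; without replicate 2 3.18, adjusted p = 0.00619). Smpdl3a was higher by 3.07 ± 0.354 and Plin2 by 2.205 ± 0.429. Cd36, at 31.4 to 74.4 CPM against 0.713 to 2.25 CPM, had 7 UMIs in these cells and again passed the filter only through them. Within microglia-like and interferon-responsive clusters Apoe stayed higher, by 3.54, but Smpdl3a fell to a log2 difference of 0.19 (edgeR adjusted p = 0.939) and Plin2 to 0.90 (adjusted p = 0.605). Plin2 was also lost without replicate 4 (adjusted p = 0.392) and with thinned counts (0.244). Mertk was lower, by an adjusted p of 0.0101, and was lost without replicate 1 (adjusted p = 0.122) or 3 (0.0948), within those clusters (0.308), with thinned counts (0.0824), in cells with at least 1000 genes (0.0545), with library totals (0.0692) and with DESeq2 (0.0727).

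In interferon cells Apoe was at 4128 CPM, 1508 CPM, 4668 CPM and 13684 CPM against 513 to 1043 CPM in the rest. Its log2 difference was 2.81 ± 0.118 (SE, edgeR adjusted p = 2.21e-122), an SE that does not measure this spread between libraries. Without replicate 4 the log2 difference was 2.49. Within microglia-like and interferon-responsive clusters the log2 difference was 0.55 (adjusted p = 0.000243). With robust estimation of the quasi-likelihood dispersion, an alternative chosen after seeing the data, Apoe did not pass (adjusted p = 0.277). Smpdl3a and Plin2 were higher by adjusted p = 0.00138 and 0.0170, and both were lost within those clusters (0.969 and 0.875) and without replicate 4 (0.643 and 0.791) and with thinned counts (0.440 and 0.596), Plin2 also without replicate 1 (0.166), with a larger share of cells in the state (0.175), in cells with at least 1000 genes (0.0518), without the block (0.140) and with DESeq2 (0.227). Lpcat3 was at 88.3 CPM, 178 CPM, 127 CPM and 166 CPM against 205 to 227 CPM, lower by an adjusted p of 0.0223 but lost without replicate 1 (0.440) or 3 (0.204), within those clusters (0.111), with a larger share of cells in the state (0.221), in cells with at least 1000 genes (0.0876) and with DESeq2 (0.455).

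In chemokine cells Lpl was at 0 CPM, 522 CPM, 689 CPM and 25.05 CPM against 6.60 to 8.55 CPM in the rest, higher in 3 of 4 libraries. The log2 difference was 4.79 ± 0.393 (SE, edgeR adjusted p = 8.62e-31, but DESeq2 adjusted p = 0.127), an SE that does not measure this spread between libraries. In immediate early cells Lpl was at 4.05 CPM, 56.5 CPM, 142 CPM and 4.75 CPM against 6.68 to 8.62 CPM, so it was higher only in replicates 2 and 3. Its call there (edgeR adjusted p = 0.00117) was lost without replicate 2 (0.522) or 3 (0.152), with the robust dispersion (0.880), without the block (0.180) and with DESeq2. Apoe was lower in immediate early cells in 4 of 4 libraries, by 0.49 on the log2 scale (edgeR adjusted p = 6.47e-06), at 440 to 751 CPM against 575 to 1209 CPM. Within microglia-like and interferon-responsive clusters its log2 difference was -0.15 (adjusted p = 0.918), and with thinned counts it was -0.12 (0.997).

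Genes whose pattern was most like that of a member were sought over 18 to 20 groups of cells per library, by Pearson's r of log2(CPM + 1) averaged over the 4 libraries, among 3099 genes at 50 CPM or more. Only Npc2, Npc1, Nr1h2 and Abca1 reached this level. Npc2 was most like B2m (mean r = 0.869), Lyz2 (0.844) and Ctss (0.818), and its r with B2m was between 0.824 and 0.911 in the single libraries. The leading genes of Abca1 were Mertk (mean r = 0.4996), Dst (0.472) and Btg1 (0.472), those of Npc1 were Itch (0.593), Txndc11 (0.473) and Clpp (0.455), and those of Nr1h2 were Ppil4 (0.577), Commd9 (0.455) and Cdk9 (0.455). Of these 12 pairs, 4 were found again with 15 groups in place of 25. Between the 4 members the mean r was between -0.21 and 0.11, and no pair of members had the same sign in every library. Groups of 1 library share its depth and its cells, so these values describe likeness and carry no test.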

How the data were processed

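Single-cell 3′ libraries of sorted brain myeloid cells from 4 mice were analysed. The deposited values are raw UMI counts per gene and barcode, which the authors made with Cell Ranger 2.2.0 on GRCm38/mm10 and called as cells. The submitters' processing notes also name bcl2fastq and Seurat. The labels gave 1 group, with replicates numbered here in accession order. The members and all gene lists were chosen with earlier results of these data known.

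Cells with fewer than 400 genes or more than 10% of UMIs from mitochondrial genes were removed. Doublets were not called here. CPM divides the counts summed over a library's cells by their total. Poisson and Clopper-Pearson intervals are exact, at 95%, and cover counting error only. Dixon's test (critical value 0.829 for 4 libraries) used log2(CPM + 1) for single genes and untransformed values for list sums and shares of cells. Ratios of members were tested on the log2 scale in the text and untransformed among the 126 flagged-result values. The limit of 10 CPM applied to the shares over all genes, and members and state values were tested at any level. Clusters were made with scanpy 1.11.5 and the Leiden method at resolution 0.5, leaving the members out. The text names the members, the 3 highest genes of each pathway list, up to 6 called genes per list and state, and the 3 genes most like each member. A state's UMI minimum was the smallest number, at least 2, that at most 2% (interferon, Cst7 and Spp1, chemokine), 1% (border myeloid) or 5% (immediate early) of a library's cells reached, and the listed genes were left out of its counts. State sums were tested with edgeR 4.0.16 (TMM, library block, two-sided) in R 4.3.3 and, as an alternative, with DESeq2 1.42.0, and the scripts were tested on simulated data. The SE and the intervals of log2 differences were derived from edgeR's test statistic. They and the p-values need not carry all of a gene's spread between mice. Replicates are separate mice per the labels. The alternatives were other scalings, filters, depths, state sizes and clusters, and leaving out each library. Gene positions come from GENCODE M21 on GRCm38. Counts on overlapping or antisense genes cannot be separated here.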

Additional observations from a re-analysis of the deposited data

Results flagged for a closer look

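Of 126 values tested over the 4 libraries with Dixon's test, 11 (8.73%) had a library apart. Chance gives about 1 in 20 for separate values well above 0. Many of these values were near 0 or shared counts with others, so the 8.73% cannot be read against that rate. Abca1 was apart by its low level in replicate 4 (ratio 0.901), the sum of the LXR target genes by its high level there (0.952) and the immediate early sum likewise (0.901). In border myeloid cells Apoe was apart at 30066 CPM in replicate 4 (ratio 0.906), against 13238 to 14294 CPM in the others, and Msr1 at 6.32 CPM in replicate 2 (0.921), against 59.5 to 71.5 CPM. These cells were chosen at a minimum of 18 UMIs in replicate 4 and 2 or 3 UMIs in the other libraries, so they are not alike over libraries. Npc1 in interferon cells was apart at 8.03 CPM in replicate 1, from 1 UMI (ratio 0.927), against 78.3 to 93.2 CPM. Nr1h2 in Cst7 and Spp1 cells was apart in replicate 3, where it had 0 UMIs (ratio 0.876), and its 4 libraries held 4 UMIs in all.

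The others rest on 1 or 2 UMIs in a single library, where the ratio is bound to be 1. They are Srebf1 in interferon cells (1 UMI, ratio 1), Srebf1 in Cst7 and Spp1 cells (1 UMI, ratio 1), Nr1h3 in border myeloid cells (2 UMIs, ratio 1) and Nr1h3 in immediate early cells (2 UMIs, ratio 1).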

How the results depend on the processing

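No member was called in any state under any alternative. Of 443 differences of members under alternatives, 48 changed sign with neither value past the threshold. Abca1 lost its library apart with TMM (0 members apart), and 2052 genes instead of 354 were apart without the filter on low levels. Interferon calls fell from 251 to 145 with thinned counts, 121 within microglia-like and interferon-responsive clusters and 165 with DESeq2. Border myeloid calls fell from 830 to 425 with thinned counts. Cst7 and Spp1 calls went from 425 to 131 within those clusters and 265 with DESeq2. Chemokine calls went from 89 to 43 with DESeq2. Immediate early calls went from 20 to 32 with a larger share of cells in the state, 4 with DESeq2 and 51 without a filter on low counts. Without the replicate block, which ties the cells of a state to the rest of the same mouse, the calls were 749 for Cst7 and Spp1 and 0 for immediate early cells.

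Leaving out each library gave 153 to 237 interferon, 447 to 993 border myeloid, 244 to 467 Cst7 and Spp1, 40 to 166 chemokine and 9 to 27 immediate early calls. The lowest came without replicate 4 for the first 3 states, without replicate 2 for chemokine and without replicate 1 for immediate early cells, and the 166 came without replicate 4. The cause of these changes was not tested. Of 296 values of called pathway genes under alternatives, 51 lost the call and 0 changed direction. States of 40 to 158 cells hold few molecules of each member, and depth limits Nr1h3, Srebf1 and Srebf2 most.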
